A study of Mus musculus with 6 samples.

Results

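Perineurial cells form the sheath of flattened cells around each nerve fascicle, and 8 genes that mark them were followed here in sciatic nerves of mice. The genes were Moxd1, Casq2, Msln, Slc2a1, Lypd2, Krt19, Tenm2 and Ntn4. They were taken by name from the 20239 named genes of the arrays, with earlier results of these data known. All 8 were measured, each by 1 probe set. The mutant mice had the genotype DhhCre::Sip1 flox/flox, in which a Cre recombinase driven by the Desert hedgehog promoter, active in the Schwann cell lineage, deletes the floxed Sip1 gene, now called Zeb2. Control mice were Sip1 flox/flox, so both groups carried the floxed alleles and differed in the Cre transgene. There were 3 mutant and 3 control mice, all 25 days old, with 1 array of whole-nerve RNA each. The comparison asks how whole-nerve values of these genes differed when Zeb2, which encodes a zinc finger transcription factor, was deleted in the Schwann lineage.

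The perineurium is built of concentric layers of cells joined by tight junctions and covered by basement membrane, and with the endoneurial vessels it makes the blood-nerve barrier. Its cells take up glucose through GLUT1, the product of Slc2a1, and seal their borders with claudin-1. Desert hedgehog, secreted by Schwann cells and received by Patched on mesenchymal cells, is required in mice for a normal perineurium. None of the 8 genes is made by perineurial cells alone, so markers of muscle, endothelium, mesothelium, epithelium, fat and fibroblasts are given beside them.

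Zeb2 itself stood at 10.96, 10.66 and 11.01 on the log2 scale in mutants 1 to 3, against 11.67, 11.57 and 12.02 in controls 1 to 3. The difference was −0.88 (SE 0.15, limma adjusted p = 0.0137), and without mutant 1 the adjusted p was 0.0522. Where its probes lie relative to the deleted part was not analysed here, and cells without Cre activity keep the gene. Which cells of the nerve those were was not measured.

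Of the 8 perineurial genes 7 rose in the mutant nerves and none fell (limma, Benjamini-Hochberg adjusted p under 0.05 over all genes). Across all 20239 genes 9.62% differed, of which 5.74% rose and 3.89% fell. The median log2 fold change of the 8 genes, mutant minus control, was 0.99, against −0.02 over all genes. In each of the 7 genes the lowest mutant value lay above the highest control value, a separation that 16.3% of all genes showed. The exception was Lypd2. In tissue RNA, more cells of a type and more RNA per cell cannot be told apart. The number of arrays limits the precision, and array background compresses the fold changes of genes with low values.

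**Figure D1:**
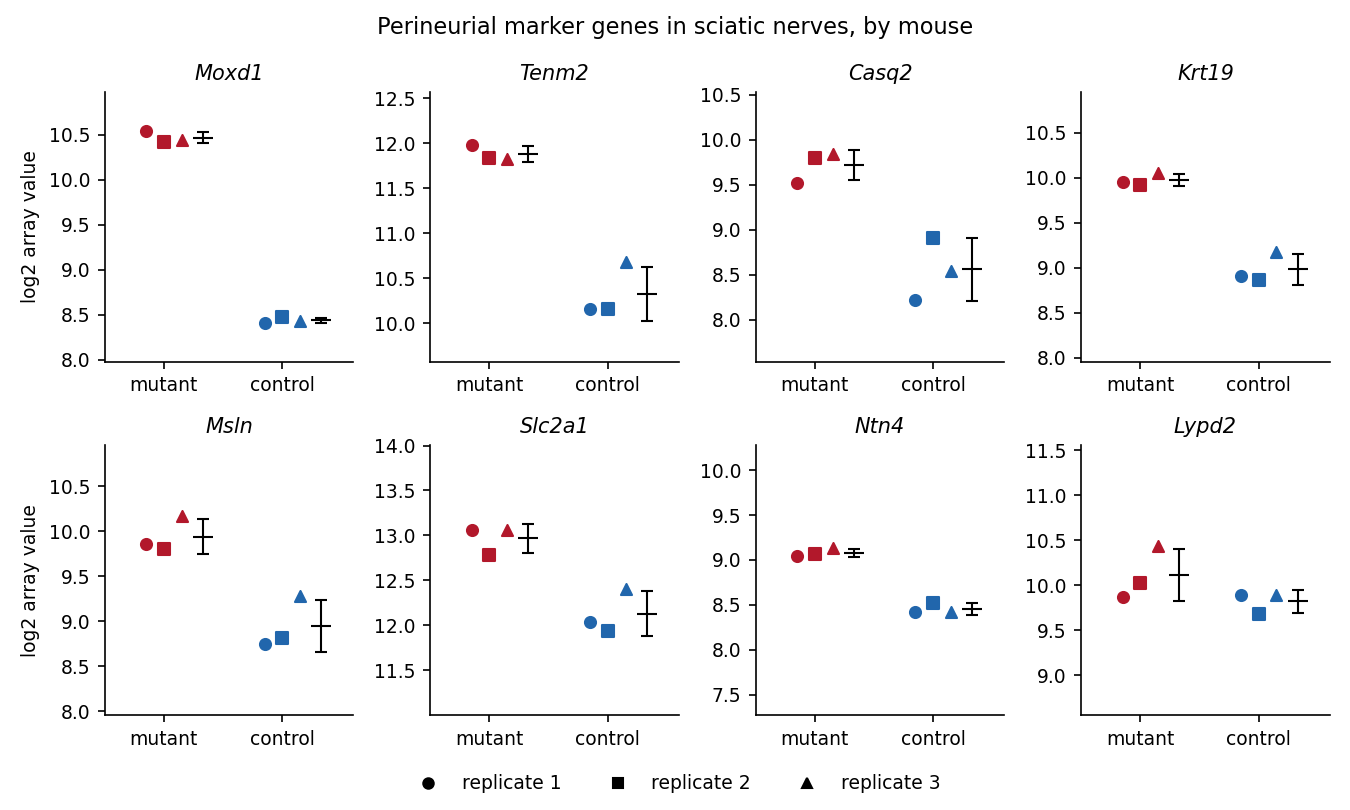
Log2 array values of the 8 perineurial genes in each mouse, with red points for mutants, blue points for controls, the symbol giving the replicate number, and black bars the mean ± SD (n = 3 each). Every panel spans the same number of log2 units. In 7 panels all mutant points lie above all control points, and in the Lypd2 panel they overlap.

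Slc2a1 encodes the glucose transporter GLUT1, through which glucose crosses the perineurial barrier. It reached 13.06, 12.78 and 13.06 in mutants 1 to 3, against 12.04, 11.94 and 12.41 in controls 1 to 3. The lowest mutant lay 0.37 above the highest control on the log2 scale. The log2 fold change was 0.84 (SE 0.15, 1.79-fold, limma adjusted p = 0.0153). The call was lost without mutant 1 (0.79, adjusted p = 0.0753) and without mutant 3 (0.79, adjusted p = 0.0755). Of 10 other transporters of this family, Slc2a13, which carries inositol, rose by 0.48, Slc2a6 fell by 0.80 and 8 did not pass (median −0.08). Among all genes 5.74% rose and 3.89% fell. The rise of Slc2a13 was lost when mutant 1, mutant 3, control 2 or control 3 was left out, with median centring and with sex as a covariate. Slc2a10 stood at 0.48 (adjusted p = 0.120) and passed without mutant 2 (adjusted p = 0.00972). Slc2a4, the insulin-responsive transporter of muscle and fat, spread from 8.74 to 10.69 in mutants and from 8.53 to 10.88 in controls, with a log2 fold change of −0.44.

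Surface and adhesion genes of the sheath made up the next group. Tenm2 encodes a teneurin, a large transmembrane adhesion protein that binds latrophilins. Its log2 values were 11.98, 11.83 and 11.83 in mutants 1 to 3, against 10.15, 10.15 and 10.67 in controls 1 to 3. The groups were 1.15 apart at their nearest values. The rise was 1.55 (SE 0.16, 2.94-fold, limma adjusted p = 0.00186).

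Msln encodes mesothelin, a surface glycoprotein first known from mesothelial cells. It was at 9.85, 9.80 and 10.17 in mutants 1 to 3, against 8.74, 8.81 and 9.28 in controls 1 to 3. Mutant 3 and control 3 were the highest of their groups. The log2 fold change was 0.99 (SE 0.17, 1.99-fold, limma adjusted p = 0.0137). It kept its size but did not pass without mutant 1 (1.04, adjusted p = 0.0527), without mutant 3 (0.88, adjusted p = 0.0594), or without mutant 2 and control 2, the samples richest in muscle transcripts (0.997, adjusted p = 0.0717).

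Ntn4 encodes netrin-4, a secreted, laminin-related protein that binds the laminin gamma-1 chain in basement membranes. It showed 9.04, 9.07 and 9.13 in mutants 1 to 3, against 8.42, 8.53 and 8.42 in controls 1 to 3. The values within each group were close together, with an SD of 0.045 in mutants and 0.063 in controls. The rise of 0.63 on the log2 scale (SE 0.08, 1.54-fold, limma adjusted p = 0.00433) was the smallest of the 7.

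Lypd2 encodes a Ly6-type surface protein and was the member that did not pass. Its values were 9.87, 10.03 and 10.44 in mutants 1 to 3, against 9.89, 9.67 and 9.89 in controls 1 to 3. Mutant 1 lay within the control range, and mutant 3 was the highest. The log2 fold change was 0.29 (95% confidence interval −0.08 to 0.66, limma adjusted p = 0.344), and the interval includes a rise as large as that of Ntn4. Of 12 other genes of the Ly6 and PLAUR domain family, Lypd6 rose by 0.87 (adjusted p = 0.00192) and 11 did not pass (family median −0.03). The share of all genes that rose was 5.74%.

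Moxd1, Casq2 and Krt19 encode proteins inside the cell. Moxd1, whose product resembles dopamine beta-hydroxylase and resides in the endoplasmic reticulum, had the largest rise of the 8. It stood at 10.54, 10.42 and 10.45 in mutants 1 to 3, against 8.41, 8.47 and 8.43 in controls 1 to 3. The gap between the groups, 1.95, was many times the spread within either one. The log2 fold change was 2.03 (SE 0.078, 4.09-fold, limma adjusted p = 8.29e-05). By size this was number 57 among the 1161 genes that rose, and by p-value number 9 of 20239. Among the related copper monooxygenases, 0 of 3 passed the limma test and 0 had an unadjusted p under 0.05. Dbh was at −0.14, Moxd2 at −0.10 and Pam, which amidates peptides, at 0.20.

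Krt19 encodes the keratin-19 filament protein of simple epithelia. It was at 9.96, 9.92 and 10.05 in mutants 1 to 3, against 8.91, 8.86 and 9.18 in controls 1 to 3. The log2 fold change of 0.99 (SE 0.11, 1.99-fold, limma adjusted p = 0.00254) exceeded the spread within both groups. Keratin-19 pairs with type II keratins in filaments. Of 9 other keratin genes listed beside it 0 passed the limma test and 1 had an unadjusted p under 0.05 (median 0.05). Krt23, a keratin outside that list, rose by 1.67 (limma adjusted p = 0.0470). Krt20 was at 0.24 and passed as higher only when quantile normalization was repeated. The type II keratin Krt8 was at 8.74, 8.85 and 8.61 in mutants, against 9.06, 8.34 and 8.66 in controls (log2 fold change 0.05). Krt18 was at −0.06 and Krt7 at 0.09.

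Casq2 encodes calsequestrin-2, a calcium-storing protein known from heart and slow muscle. It showed 9.52, 9.79 and 9.84 in mutants 1 to 3, against 8.22, 8.91 and 8.54 in controls 1 to 3. Mutant 3 was the highest mutant and control 2, rich in muscle transcripts, the highest control. The controls had the same order in Casq2 as in muscle content, and the lowest value of each group was in the mouse with the least muscle. The log2 fold change was 1.16 (SE 0.18, 2.23-fold, limma adjusted p = 0.0102). It was 1.17 with the muscle score as a covariate (adjusted p = 0.0035) and 1.30 without mutant 2 and control 2 (adjusted p = 0.0220). Without mutant 3 it was 1.10 and the call was lost (adjusted p = 0.0529). The muscle score averages fast and general muscle markers. The mean of slow muscle markers, highest in control 3 (8.36) and lowest in mutant 3 (6.93), was not used as a covariate. The part of slow fibres in the value of Casq2 was not tested. Its muscle paralog Casq1 was at 7.02, 12.64 and 9.84 in mutants 1 to 3, against 8.50, 13.06 and 10.34 in controls 1 to 3. Of 11 genes of the calsequestrin complex and the junctional calcium store, 0 passed the limma test and 1 had an unadjusted p under 0.05 (median −0.21). Ryr1 was at −0.29, Trdn at −0.21, Ryr2 at −0.09 and Atp2a2, the calcium pump of slow muscle and of many other cells, at 0.37. Without mutant 2 the median was −0.83 and Sln passed as lower (−0.83, adjusted p = 0.0410), and with array weights the median was −1.12 and Atp2a2 passed as higher (adjusted p = 0.0135).

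**Figure D2:**
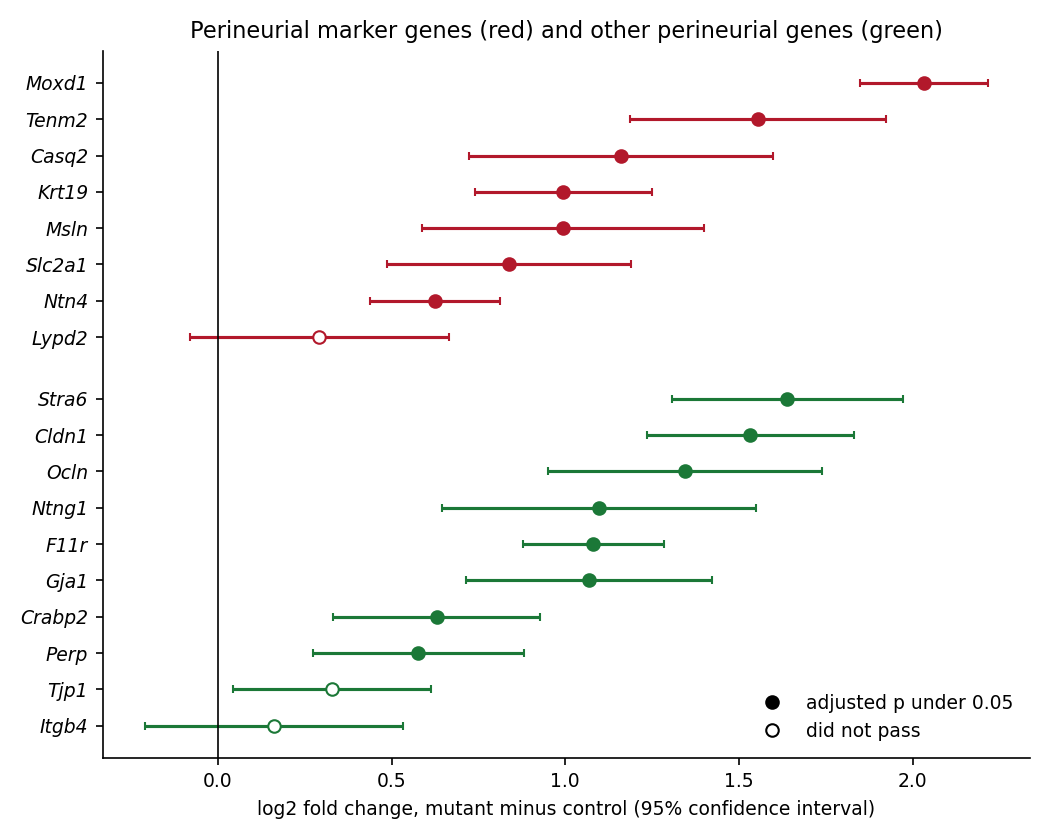
Log2 fold changes, mutant minus control, with 95% confidence intervals, for the 8 perineurial genes (red) and 10 further perineurial genes (green), where filled points passed the test. The intervals of Lypd2 and Itgb4 include 0, and Moxd1 at 2.03 lies farthest to the right.

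Within the 3 pairs of mice that share a replicate number, 23 of 24 differences of the 8 genes were positive, the exception being Lypd2 in pair 1 at −0.02. Over the 7 genes that rose, the differences ran from 0.62 to 2.12 in pair 1, from 0.54 to 1.95 in pair 2 and from 0.65 to 2.02 in pair 3. Control 3 was the highest control in 4 of the 8 genes, namely Msln, Slc2a1, Krt19 and Tenm2, and pair 3 gave the smallest difference in these 4. Moxd1, Ntn4, Casq2 and Lypd2 did not follow that order.

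Xist and Y-linked genes placed 2 males and 1 female among the mutants, and 1 male (control 3) and 2 females among the controls. Within females Msln differed by 1.39 and within males by 0.55, and Slc2a1 differed by 1.07 within females and by 0.51 within males. Moxd1 differed by 2.00 within females and by 2.05 within males. In 7 of the 8 genes the difference was larger in females. Whether sexes differ was not tested, and the males have 1 control mouse. With sex as a covariate the same 7 genes rose.

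The sequences before the starts of the 2 genes with the largest rises and of Slc2a1, the sheath's glucose transporter, are shown because a ZEB-type site was searched in them. They are the 250 bases before the listed transcription start (mouse build GRCm38.p6). The promoter collection used here held 5 of the 8 genes and lacked Msln, Lypd2 and Krt19. The strand is plus for Moxd1 (chr10:24223267-24223516) and Slc2a1 (chr4:119108495-119108744) and minus for Tenm2 (chr11:36944242-36944491), whose listed start lies inside the annotated gene. Capitals mark a ZEB-type E-box.
Moxd1: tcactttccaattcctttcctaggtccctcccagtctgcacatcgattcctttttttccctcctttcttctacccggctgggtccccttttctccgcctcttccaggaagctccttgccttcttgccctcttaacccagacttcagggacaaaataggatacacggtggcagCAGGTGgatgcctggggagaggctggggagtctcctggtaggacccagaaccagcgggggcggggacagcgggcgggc
Tenm2: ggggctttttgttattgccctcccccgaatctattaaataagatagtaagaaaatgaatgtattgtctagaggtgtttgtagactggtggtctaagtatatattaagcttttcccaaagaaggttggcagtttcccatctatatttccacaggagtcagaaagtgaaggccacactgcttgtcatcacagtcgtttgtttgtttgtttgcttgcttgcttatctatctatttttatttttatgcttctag
Slc2a1: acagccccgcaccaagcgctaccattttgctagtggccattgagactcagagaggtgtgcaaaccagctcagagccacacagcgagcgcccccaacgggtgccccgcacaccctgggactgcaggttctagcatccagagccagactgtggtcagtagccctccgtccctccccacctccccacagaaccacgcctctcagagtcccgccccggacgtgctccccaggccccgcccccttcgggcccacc
The E-box was searched as CACCTG and its reverse complement CAGGTG, and a GLI-type motif as GACCACCCA and its reverse complement TGGGTGGTC. Of the 5 promoters, that of Moxd1 held 1 E-box, as CAGGTG beginning 78 bases before the start. Among all 32851 promoters of the collection, 17.2% held an E-box in the same window. None of the 5 held the GLI-type motif, which 0.225% of all promoters held. The G and C content was 58.4% for Moxd1, 37.2% for Tenm2, 66.4% for Slc2a1, 41.6% for Casq2 and 73.2% for Ntn4, against a median of 52.4% over all promoters.

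Other genes known from perineurial cells were counted too. Their list, like the 8 members, was chosen with earlier results of these data known, so its counts are a description and not a test. Of 10 such genes 8 rose and none fell (median log2 fold change 1.07), against 5.74% of all genes that rose. Claudin-1, the tight junction protein that seals the perineurium (Cldn1), was at 13.16, 13.08 and 13.23 in mutants, against 11.58, 11.43 and 11.87 in controls, a log2 fold change of 1.53 (SE 0.13, limma adjusted p = 0.000958). Occludin (Ocln) rose by 1.34, the junctional adhesion molecule F11r by 1.08 and the gap junction protein connexin-43 (Gja1) by 1.07. Stra6, a receptor for retinol-binding protein, rose by 1.64 and Crabp2, which carries retinoic acid, by 0.63. Ntng1, a membrane-anchored netrin-G, rose by 1.10 and Perp, a desmosome-associated membrane protein, by 0.58. The scaffold protein Tjp1 was at 0.33 (adjusted p = 0.160), with all 3 mutants above the controls. Itgb4, the laminin-binding integrin of the outer perineurial membrane, was at 11.96, 11.95 and 11.97 in mutants, against 11.65, 11.59 and 12.16 in controls (log2 fold change 0.16, adjusted p = 0.616). Without mutant 1, and equally without mutant 3, 5 of the 10 rose, and Ntng1, Crabp2 and Perp did not. Crabp2 also did not pass without control 1 or control 2, or with sex as a covariate. When 1 mouse at a time was left out, Perp kept its call only without control 3. Perp also lost it without mutant 2 and control 2, with repeated quantile normalization, with median centring and with sex as a covariate.

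Hedgehog genes were measured as the pathway that acts on perineurial precursors. Of 11 measured genes 7 rose and none fell (median 0.73), against 5.74% of all genes that rose. The ligand Dhh was at 12.03, 11.54 and 12.15 in mutants, against 11.57, 11.59 and 11.99 in controls, a log2 fold change of 0.19 (adjusted p = 0.623). The receptor Ptch1, itself a target, rose by 0.62, and the coreceptors Boc and Gas1 by 0.97 and 0.73. Gli1, a transcription factor and target, rose by 0.95, Gli2 by 1.07 and Gli3 by 0.95. Hhip, which binds the ligand and is induced by the pathway, rose by 3.19, with 10.75, 10.01 and 10.83 in mutants, against 7.53, 7.33 and 7.16 in controls. Smo was at 0.29 (adjusted p = 0.148), Sufu at 0.22 and Cdon at −0.06. Without mutant 1 or without mutant 3, 4 of the 11 rose, and Ptch1, Gas1 and Gli3 did not. Ptch1 also missed the threshold without control 2, and Gas1 without control 1 or control 3.

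Relatives and partners of the adhesion genes were counted next. Of 9 teneurin, latrophilin and FLRT genes 5 rose (median 0.85), against 5.74% of all genes. The latrophilin Adgrl3 rose by 1.81 and Adgrl1 by 0.85, the teneurin Tenm3 by 1.34, and Flrt2 and Flrt3, which bind latrophilins, by 1.36 and 1.02. Adgrl1 did not pass without mutant 1 or mutant 3. Tenm1 was at −0.11, Tenm4 at −0.03, Adgrl2 at 0.04 and Flrt1 at 0.08. Of 12 netrin genes and receptors 2 rose (median 0.20), against 5.74% of all genes. Ntn1 rose by 0.79, beside Ntng1, while the receptor Unc5a was at 0.78 (adjusted p = 0.0713), Neo1 at 0.33 and Dcc at 0.22. Blocking on replicate number, Unc5a passed (adjusted p = 0.0375), as it did without control 2 (adjusted p = 0.0381). With array weights 4 of the 12 rose, and without mutant 1, without mutant 3, or without mutant 2 and control 2 there was 1. Lamc1, the laminin chain that netrin-4 binds, was at 12.35, 12.02 and 12.30 in mutants, against 12.21, 12.13 and 12.45 in controls (log2 fold change −0.04).

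**Figure D3:**
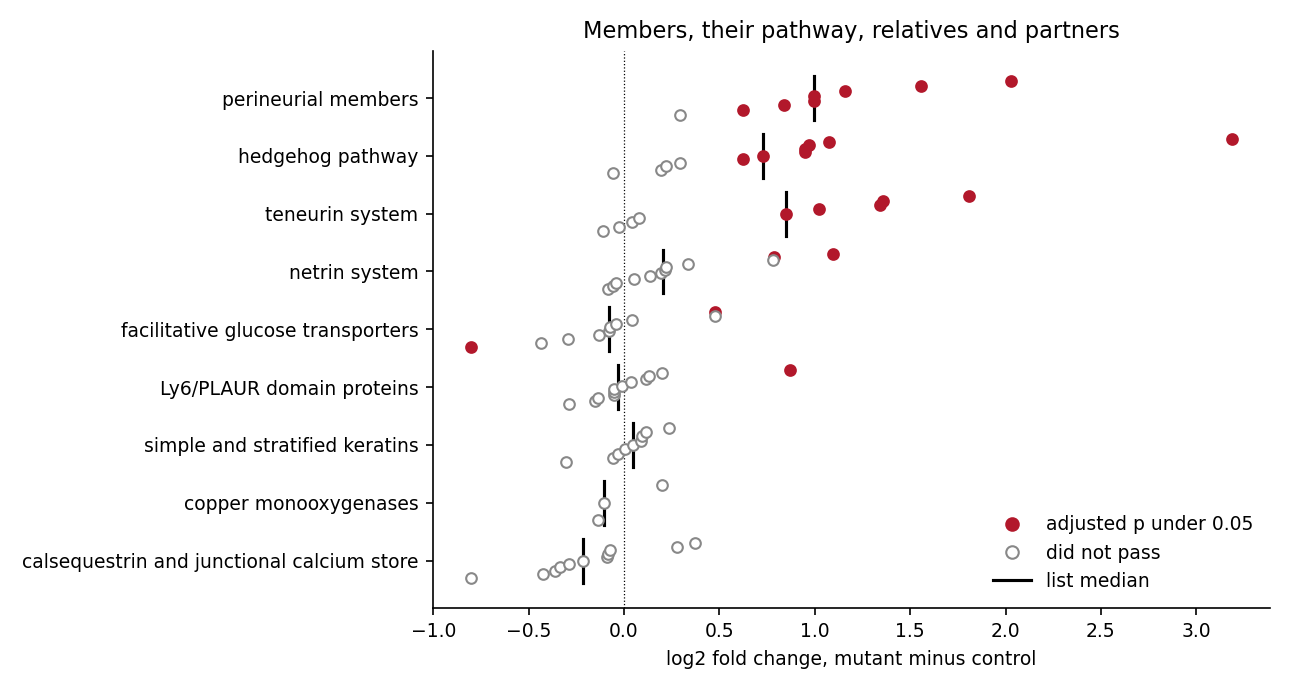
Log2 fold changes, mutant minus control, of the 8 perineurial genes and of the lists of their pathway, relatives and partners, with 1 point per gene, filled where it passed, and a bar at the list median. The hedgehog and teneurin lists have medians of 0.73 and 0.85, while the medians of the keratin, glucose transporter and Ly6 lists lie between −0.08 and 0.05.

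The nerves differed in how much other tissue they carried. Averaged over 15 markers of skeletal muscle, the log2 value was 7.49, 12.46 and 9.82 in mutants 1 to 3, against 7.43, 12.51 and 10.28 in controls 1 to 3, and of these markers 0 passed the limma test and 0 had an unadjusted p under 0.05. The mean of 7 slow muscle markers, the fibres that make Casq2, ran from 6.93 to 7.78 in mutants and from 7.27 to 8.36 in controls, and 0 passed with 0 at an unadjusted p under 0.05. The members with the smallest p were Mb in the first list, at −0.42, and Tnnc1 in the second, at −0.37. The median log2 fold change of the first list was −0.09, and −2.78 with array weights. That of the second was −0.33, and −0.72 without mutant 2 and control 2. Myh7 of the second list passed as lower with the adipocyte score as a covariate (−0.77, limma adjusted p = 0.0477). With the mean of the 15 fast and general muscle markers as a covariate 7 members rose, and without mutant 2 and control 2 there were 6. The mean of 9 adipocyte markers ran from 10.84 to 11.33 in mutants and from 10.15 to 12.31 in controls, with none past the limma test, 0 at an unadjusted p under 0.05 and Lep at −0.85. With that score as a covariate 7 members rose.

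Endothelial cells of nerve vessels also make GLUT1. The mean of 12 endothelial markers ran from 10.10 to 10.18 in mutants and from 10.25 to 10.47 in controls, with a median log2 fold change of −0.09, and their part in the value of Slc2a1 was not tested. Mfsd2a, a lipid transporter of barrier endothelium, fell by 1.64, Vwf by 0.43 and Cldn5 by 0.42, and 9 did not pass. The share of all genes that fell was 3.89%. Vwf and Cldn5 did not pass when replicate number was a block (adjusted p = 0.0592 and 0.0503). Vwf lost its call when any 1 of the 6 mice was left out, Cldn5 when any 1 except control 2 was. Cdh5 was at 0.38 (adjusted p = 0.214) and passed as higher without control 1 (adjusted p = 0.0409) and with the adipocyte score as a covariate. Kdr was at −0.57 (limma adjusted p = 0.167). It passed as lower without control 3 (−0.80, adjusted p = 0.0308), with array weights and with the adipocyte score as a covariate. Abcb1a, at 0.41, passed as higher without control 3 and with array weights. Of 3 red cell markers 0 passed and 0 had an unadjusted p under 0.05, and Hbb-bs was at 0.41.

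Msln and Krt19 are also markers of mesothelium and epithelium. The mean of 10 genes of those tissues ran from 6.99 to 7.14 in mutants and from 7.10 to 7.24 in controls, and 9 of the 10 averaged below the median of all values. Of these genes Upk1b, a uroplakin, rose by 1.33, and Cdh1, which Schwann cells also make, and Wt1 fell by 1.20 and 0.53. Among all genes 5.74% rose and 3.89% fell. Upk3b was at 0.05 and Epcam at −0.07, with Epcam between 6.02 and 6.11 in mutants and between 6.07 and 6.17 in controls. Without mutant 1 or mutant 3 the fall of Wt1 did not pass, and without mutant 2 and control 2 that of Cdh1 did not.

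Of 12 markers of nerve fibroblasts 3 rose, against 5.74% of all genes, and none fell. Their mean value ran from 10.60 to 10.88 in mutants and from 10.24 to 10.48 in controls (median log2 fold change 0.29). Etv1 rose by 1.55, the proteoglycan Lum by 0.99 and the receptor Pdgfra by 0.51, and 9 did not pass. Among these were Dpp4 at 0.76 (adjusted p = 0.0571), Dcn at 0.31 and Col1a1 at 0.26. Below 0 or near it were Osr2 at −0.22, Clec3b at −0.04, Sox9 at −0.005 and Pi16 at 0.09, and Ly6c1 was at 0.13. Dpp4 had all mutants above all controls and passed under both filters on low values, with array weights and with the adipocyte score or sex as a covariate (adjusted p = 0.0161 with sex). When replicate number was a block, Wif1 also passed (0.47, adjusted p = 0.0350). With array weights 7 of the 12 rose, and Pdgfra lost its call without mutant 1, mutant 3, control 2 or control 3. Of 7 measured myelin genes 7 fell, against 3.89% of all genes. They ran from Pmp22 at −0.60 to Mag at −4.89 and Pmp2 at −6.58, and Pmp22 did not pass without mutant 3. The part of fibroblast content and of lost Schwann cell transcripts in the values of the perineurial genes was not tested.

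**Figure D4:**
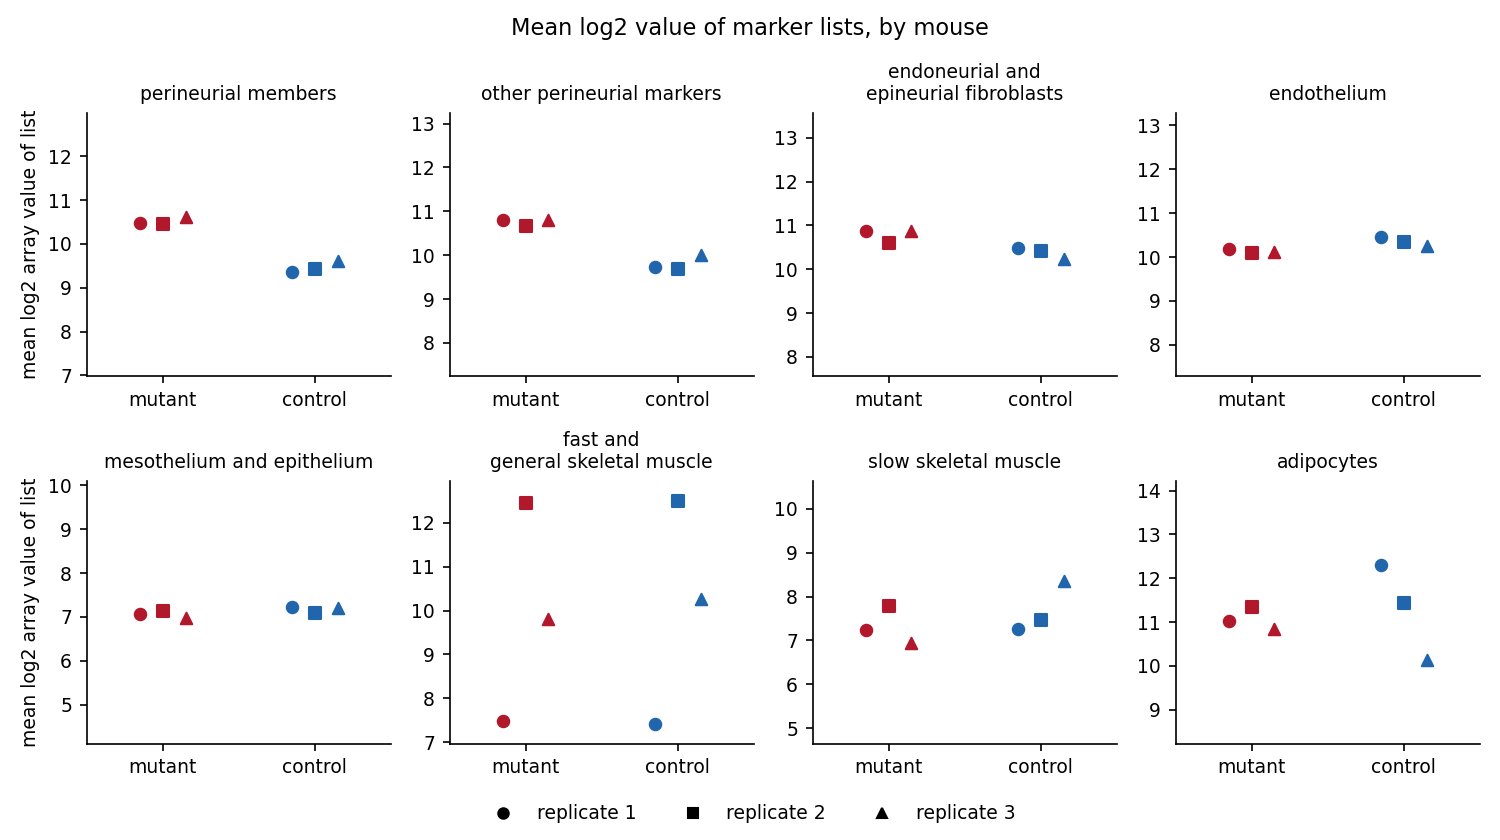
Mean log2 value of each marker list in each mouse, with mutants in red left of controls in blue and the symbol giving the replicate number. Every panel spans the same number of log2 units. The perineurial lists and the fibroblast list lie higher in all mutants than in all controls, and the endothelial list lies lower. The fast and general skeletal muscle panel separates the replicate numbers.

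Genes with the most similar values over the 6 arrays were sought among genes with an SD of at least 0.5, by Pearson's r. The arrays fall into 2 genotypes, so genes that differ between these correlate with each other, and r is given as a description. The genes most like Krt19 were Aldh1a1, a retinaldehyde dehydrogenase (r = 0.999), and Cldn1 (r = 0.999). Those most like Tenm2 were Itgb8 (r = 0.998) and Ocln (r = 0.998). Moxd1 was most like Gria2 (r = 0.999), a glutamate receptor subunit, and the hedgehog coreceptor Boc (r = 0.999). For Ntn4 they were Sult5a1 (r = 0.999) and Itga9 (r = 0.997), for Slc2a1 Sh3pxd2b and Sorcs2 (both r = 0.996), and for Msln Ddit4 and Il33 (both r = 0.995). Casq2 was most like Lmo7 (r = 0.987) and Enah (r = 0.986). Lypd2 had the least similar neighbours, Zpld1 (r = 0.894) and Krt23 (r = 0.877), and both of these rose, by 1.02 and 1.67.

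**Figure D5:**
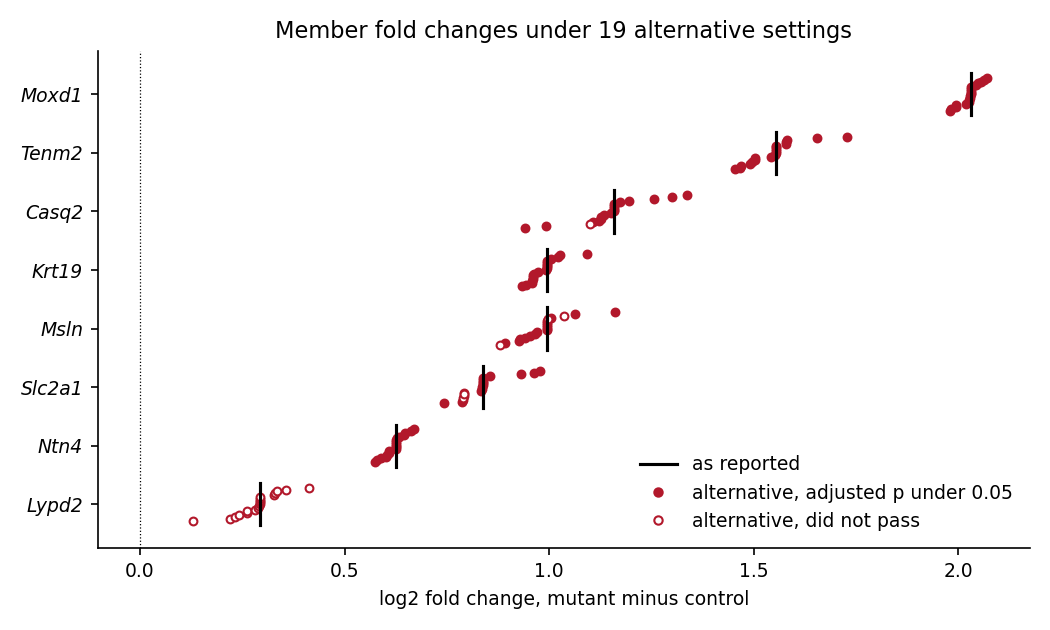
Log2 fold changes, mutant minus control, of the 8 perineurial genes under 19 alternative settings (points, open where the test was not passed) and as reported (bars). All points lie above 0, and open points appear for Casq2, Msln and Slc2a1 and throughout for Lypd2.

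The 7 rises did not depend equally on single mice. Moxd1, Krt19, Tenm2 and Ntn4 passed under all 19 alternatives, with log2 fold changes from 1.98 to 2.07, 0.93 to 1.09, 1.45 to 1.73 and 0.57 to 0.67 in that order. Without mutant 1 there were 5 members that rose and without mutant 3 there were 4. The count over all genes also fell then, to 896 and 910 genes, against 1948 with all mice. Lypd2 ran from 0.13 without mutant 3 to 0.41 without mutant 1 and passed under none of the 19, with adjusted p between 0.262 and 0.764.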

How the data were processed

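Nerve RNA, extracted with Trizol, was put on Affymetrix arrays of 1 colour after biotin labelling, per the labels' protocols. The log2 values come from the 1 deposited table, and the log base was read from their range (3.55 to 14.52). Not given in the sources used here are the background correction, the normalization and the genome build. The submitters' processing notes name limma. No detection calls were used.

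The table held 21225 probe sets, of which 20239 had 1 symbol in the platform annotation, updated to RefSeq (GRCm38.p6), 0 had several and 986 had none. It had 0 columns outside the study. All named genes entered 1 fit in limma 3.58.1 under R 4.3.3 (lmFit, eBayes, two-sided, mutant minus control, no block), with Benjamini-Hochberg adjustment over all of them and a threshold of 0.05. SE is the moderated standard error. Plots used matplotlib 3.10.9 and Python 3.11.15.

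The members and the 17 other lists were chosen with earlier results of these data known, so lists are described by counts and medians. Some genes of these lists were not analysed here, and counts are over the genes measured. Named genes were the 8 members, Zeb2, list members and, for each member, the 2 most similar genes. In the lists of other cells the rule gave up to 4 members that passed, or the one with the smallest p, and the 2 with the highest values. Not all of these are printed, and others there were chosen after their values were seen.

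Replicate numbers are shared by the groups. Deviations from the group means correlated between same-numbered mice at 0.360, 0.574 and 0.295 over all genes, all above 0.1. Differences are therefore also given within numbers, but the p-values come from the fit without a block unless stated. Mutant 1 and control 3, of different numbers, gave 0.303, the labels do not say what a number marks, and muscle content followed it. A fit blocked on replicate number was an alternative. Other alternatives were filters on low values, repeated quantile normalization, median centring, 16 added to the linear values, a trended robust prior, array weights, all probe sets, covariates for sex, muscle and fat, and omission of each mouse or of mutant 2 and control 2. Simulated data of 20239 independent genes without replicate effects tested the fit (20 runs, 50 changed genes per size). At a log2 change of 0.5 it recovered 22.0% of changed genes, at 1 it recovered 73.0% and at 2 it recovered 94.7%. Many more genes passed in the data, and same-numbered mice correlated, so these percentages describe the simulated setting alone.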

Additional observations from a re-analysis of the deposited data

How the results depend on the processing

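The 8 perineurial genes kept a positive difference in all 152 combinations of gene and alternative, and in 146 of them the same side of the threshold. Leaving out 1 mouse at a time gave 4 to 7 members that rose, with log2 fold changes from 0.99 to 1.34 for Casq2, 0.88 to 1.16 for Msln and 0.74 to 0.98 for Slc2a1. Without mutant 2 and control 2 there were 6, Msln standing at 0.997. A replicate block left 7 members that rose and 2047 genes that passed. Among the genes of the lists the block changed the calls of Unc5a, Wif1, Vwf and Cldn5 and no others. Over all genes 1948 passed, 1161 higher and 787 lower. Array weights gave 3655, with 2411 higher and 1244 lower. The adipocyte score as a covariate gave 1188 lower, and omission of mutant 2 and control 2 gave 453 lower. Omission of 1 mouse gave 896 to 2021 genes, 502 to 1397 higher and 392 to 744 lower. Without mutant 2 there were 2021 genes, more than with all mice. Fits that leave out mice also have fewer arrays, and the cause of these shifts was not tested. Of 162 other genes (Zeb2 and the lists) 15 lost their call under some alternative, 15 gained one and 0 reversed. No detection calls bound the values of dim probe sets.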
